A study of Mus musculus with 16 samples.

Results

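The genes described here are those of the cytotoxic granule: the granzymes Gzma, Gzmb, Gzmc, Gzmd, Gzme, Gzmf, Gzmg and Gzmk, the pore-forming protein Prf1 (perforin) and the granule membrane protein Nkg7. They were chosen by name, with earlier results of these data known, and are 10 of the 19715 genes in the matrix. They were followed across the cell types named by the authors and across 4 groups of single-cell RNA libraries from mouse neuroblastoma. Male C57BL/6 mice, 8 weeks of age, carried subcutaneous NB9464D neuroblastoma tumors, which were taken on day 28 and digested with type IV collagenase at 1 mg/mL. The mice were wild type (WT) or CD200R-/- (KO). CD200R is an inhibitory receptor of leukocytes, and the growth protocol in the labels names the second genotype as CD200-/- instead. All groups carried the same tumor cells and had no other treatment in the labels. From each genotype either CD45+ cells sorted by flow cytometry ("sorted") or all cells of the tumor ("tumor") were loaded on the 10x Genomics 3' platform.

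The labels list 4 samples in each of the 4 groups, but the cells carry only 1 library name per group, so each group was 1 library. No test and no spread between replicates could therefore be given, and genotype cannot be told apart from differences between the 2 libraries of a preparation. WT sorted held 5219 cells and 62509573 UMIs (counted RNA molecules), KO sorted 4305 cells and 29200338 UMIs, WT tumor 4955 cells and 103277632 UMIs, and KO tumor 5897 cells and 103877007 UMIs. Of the cell barcodes, 113 occurred in more than 1 library, and leaving them out ended and reversed no call of a member in the sorted NK cells, CD8+_effectors or Tregs described below. The receptor gene Cd200r1 was at 46.2 CPM (UMIs of the gene per 1000000 UMIs) in WT sorted and at 0 UMIs in KO sorted, where 3 counts would be 0.103 CPM. In the tumor libraries it was at 0.736 CPM in WT and at 0.0481 CPM, or 5 UMIs, in KO. The ligand gene Cd200 was detected in all 4 libraries, at 11.1 CPM in WT sorted and 50.8 CPM in KO sorted.

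Cytotoxic lymphocytes kill by releasing granules toward a bound target cell. Perforin opens the target membrane and granzymes, a family of serine proteases, enter and cleave proteins inside it. Granzyme B is a strong inducer of apoptosis, granzyme A and granzyme K are tryptases encoded side by side, and mice carry a further group of granzymes beside the granzyme B gene that is known mainly from activated natural killer (NK) cells and killer T cells. Nkg7 is a membrane protein of these granules that takes part in their release.

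In the GENCODE vM21 annotation of GRCm38, Gzmb, Gzmc, Gzmf, Gzmg, Gzmd and Gzme lay in this order of transcription on the minus strand of chromosome 14, within 144.635 kb between 56117626 and 56262260. Gzma and Gzmk lay on the minus strand of chromosome 13 within 132.084 kb, Prf1 at chr10:61297833-61304680 and Nkg7 at chr7:43437073-43438249, both on the plus strand. Because 3' reads are counted, the ends of the transcripts decide whether paralogs can be told apart. Of the 451 words of 50 bases in the last 500 bases of each transcript, 90 of Gzmd (19.96%), 69 of Gzme (15.3%), 32 of Gzmf (7.10%) and 24 of Gzmg (5.32%) also occurred in another member, and 0 of the other 6 genes did. The split of reads among Gzmd, Gzme, Gzmf and Gzmg is therefore uncertain, to an extent that was not measured, so their sum is given as well. Gzmn, which lies among these genes on chromosome 14 but is not a member, was not compared.

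The promoters of the chromosome 14 genes, with those of Prf1 and Nkg7, are shown because these genes are the ones whose levels in NK cells are described most closely here. Each sequence runs 5′ to 3′ from 150 bases before to 20 bases from the transcription start, from RefSeq on GRCm38.p6. Capitals mark every match, on either strand, of 6 motifs: T-box AGGTGTGA, its shorter core AGGTGT, which lies within it, Runx TGTGGT, AP-1 TGANTCA, Ets GGAAGT and STAT TTCNNNGAA. A match on the other strand appears as its reverse complement.
Gzmb proximal promoter, chr14:56262315-56262484, minus strand: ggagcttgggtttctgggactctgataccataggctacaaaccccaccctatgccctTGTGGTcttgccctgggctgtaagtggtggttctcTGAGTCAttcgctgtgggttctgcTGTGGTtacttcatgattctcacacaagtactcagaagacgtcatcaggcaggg
Gzmc proximal promoter, chr14:56234638-56234807, minus strand: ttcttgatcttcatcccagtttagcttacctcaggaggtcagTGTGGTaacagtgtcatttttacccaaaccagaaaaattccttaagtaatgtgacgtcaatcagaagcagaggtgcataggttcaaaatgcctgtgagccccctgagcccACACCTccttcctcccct
Gzmd proximal promoter, chr14:56132574-56132743, minus strand: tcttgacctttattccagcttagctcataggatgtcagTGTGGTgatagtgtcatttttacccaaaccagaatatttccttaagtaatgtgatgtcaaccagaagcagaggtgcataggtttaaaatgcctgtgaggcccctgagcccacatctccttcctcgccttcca
Gzme proximal promoter, chr14:56120606-56120775, minus strand: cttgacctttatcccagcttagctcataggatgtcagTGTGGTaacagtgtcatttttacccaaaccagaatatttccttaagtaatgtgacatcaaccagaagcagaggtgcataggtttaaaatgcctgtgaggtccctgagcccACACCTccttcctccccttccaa
Gzmf proximal promoter, chr14:56211388-56211557, minus strand: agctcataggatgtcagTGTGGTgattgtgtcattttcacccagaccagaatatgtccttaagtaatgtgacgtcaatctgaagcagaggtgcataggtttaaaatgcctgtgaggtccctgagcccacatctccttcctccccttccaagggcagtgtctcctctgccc
Gzmg proximal promoter, chr14:56159560-56159729, minus strand: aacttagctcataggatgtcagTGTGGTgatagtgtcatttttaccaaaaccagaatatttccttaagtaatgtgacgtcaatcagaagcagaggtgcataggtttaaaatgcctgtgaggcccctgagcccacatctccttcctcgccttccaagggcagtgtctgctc
Prf1 proximal promoter, chr10:61297686-61297855, plus strand: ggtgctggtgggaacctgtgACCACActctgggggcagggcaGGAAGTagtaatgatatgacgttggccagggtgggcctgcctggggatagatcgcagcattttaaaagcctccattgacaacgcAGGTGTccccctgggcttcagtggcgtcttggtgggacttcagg
Nkg7 proximal promoter, chr7:43436988-43437157, plus strand: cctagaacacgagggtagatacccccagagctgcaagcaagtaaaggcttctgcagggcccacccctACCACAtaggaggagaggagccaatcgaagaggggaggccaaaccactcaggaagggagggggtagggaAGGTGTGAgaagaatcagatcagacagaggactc

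All 10 members matched the RefSeq promoter table, with 1 window of 300 bases each (250 before to 50 after the start). Gzmc to Gzmg resembled each other over this window, with 74.6% to 93.4% identity, the highest between Gzmd and Gzme. Gzmb had 46.8% to 51.7% identity with these 5 genes. The Runx motif was in 9 members, all but Gzmk, and in 16.8% of all 32851 windows of this length. The Ets motif was in 7 members, Gzmc to Gzmg, Gzmk and Prf1, and in 23.8% of all windows. The short T-box core was in Gzma, Gzmc, Gzme, Gzmk, Prf1 and Nkg7 and in 13.7% of all windows, the longer form in Nkg7 and in 1.28%. The AP-1 motif was in Gzmb and in 7.81% of all windows, and the STAT motif in Gzmb and Nkg7 and in 8.30%. These are letter matches, not measured binding.

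The 10 genes were found mainly in NK cells. Their summed UMIs were 107502 in WT sorted, 36551 in KO sorted, 525 in WT tumor and 4126 in KO tumor, and the NK cells of these libraries held 76.5%, 61.8%, 65.7% and 68.4% of them. NK cells were 186, 287, 12 and 79 cells of the 4 libraries. Together with the class named CD8+_effectors, killer T cells, they held 78.8%, 65.8%, 77.1% and 78.4%. The class next in size was the one named NB_cells, with 9.04% in WT sorted, 23.2% in KO sorted, 17.3% in WT tumor and 7.78% in KO tumor.

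In both sorted libraries NK cells stood first among the cell types for Gzma to Gzmg and Prf1, and CD8+_effectors stood first for Gzmk and Nkg7. Gzma was at 3786 CPM in NK cells and 346 CPM in NB_cells of WT sorted, and at 2955 and 708 CPM in KO sorted. Below NB_cells, the order of Gzma differed between the libraries, since CD8+_effectors were at 28.1 CPM in WT sorted, with an interval overlapping that of the class above them, and at 298 CPM in KO sorted. Gzmb was second highest in the regulatory T cell class, Tregs, at 387 CPM in WT sorted and 480 CPM in KO sorted, followed by CD8+_effectors at 365 and 366 CPM. Those 2 classes had overlapping intervals in WT sorted but not in KO sorted. All CPM intervals here are exact Poisson 95% intervals and cover counting error only, not differences between mice.

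**Figure D1:**
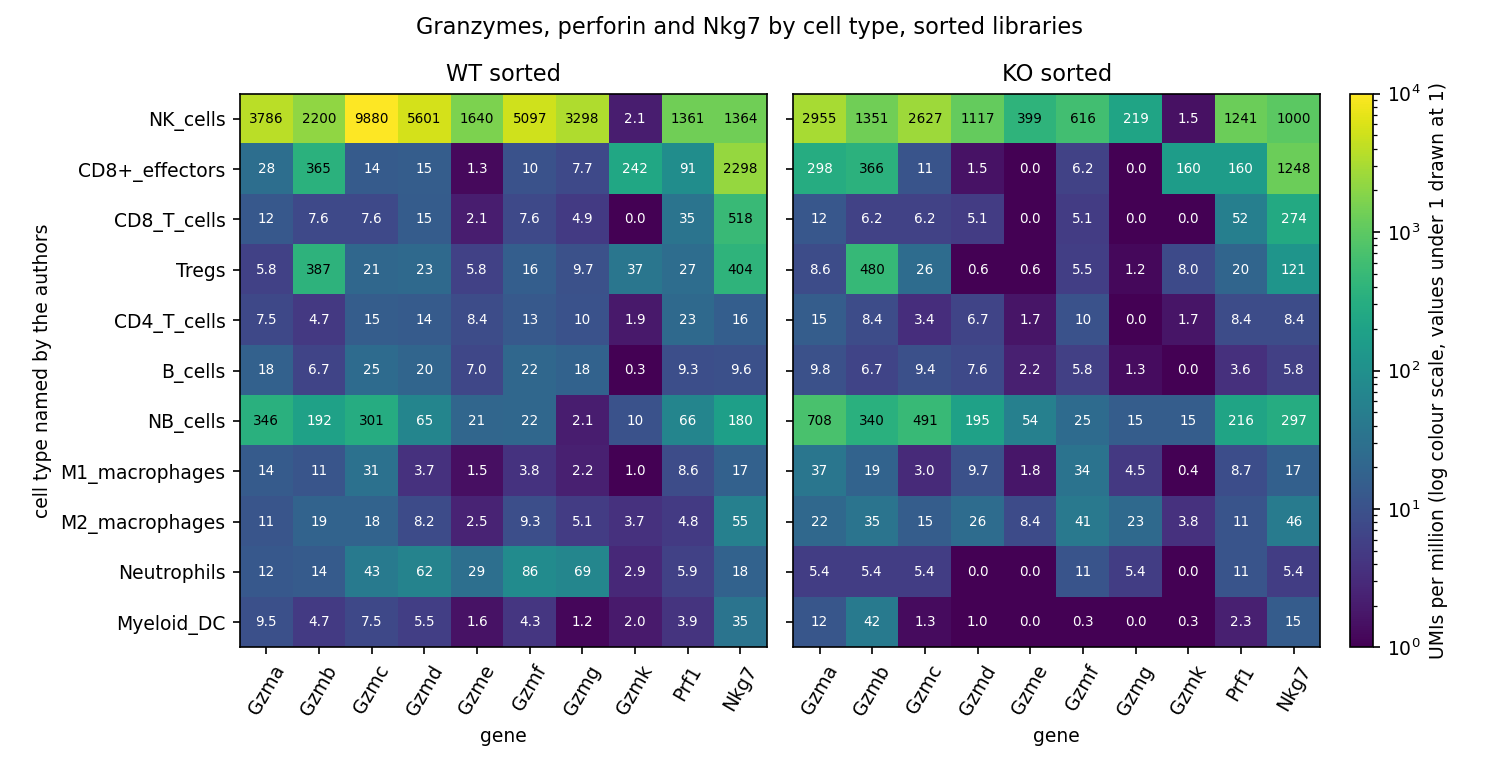
Levels of the 10 genes (columns, CPM, log color scale) in selected cell types with at least 50 cells in both sorted libraries (rows). WT is on the left and KO on the right. Fibroblasts, Cancer_stem_cells and Hematoietic_stem_cells also had that many cells but are not drawn. In WT sorted, Cancer_stem_cells and Fibroblasts came next after NK cells for Gzmf, at 512 and 431 CPM. The NK row is brightest for Gzma to Gzmg and Prf1, with Gzmc at 9880 CPM in WT and 2627 CPM in KO, while Gzmk is highest in CD8+_effectors at 242 and 160 CPM.

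The NK label fitted its NK markers, though markers of macrophages were also found in the class, as given below. All 10 listed NK markers were detected, with a summed level of 3033 and 4950 CPM in WT sorted and KO sorted. Of the class's cells, 99.5% and 100% held a UMI of at least 1 of the 10. Ncr1 was found in 92.5% and 72.1% of the cells, and Klrb1c in 81.7% and 79.1%. At 2000 UMIs per cell, to which each cell was thinned so that depth did not differ, a median of 4 of the 10 members was detected per NK cell in WT sorted and 3 in KO sorted. In CD8+_effectors the median was 2 in both, and in B cells, which should lack these genes, it was 0 in both. At least 5 members were detected in 36.3% of WT and 12.6% of KO NK cells. Of the thinned B cells, 80.0% in WT sorted and 90.8% in KO sorted had no UMI of any member.

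NK cells of the KO sorted library held less of the chromosome 14 granzymes than those of WT sorted. Gzmc was at 9880 CPM in WT sorted, 2627 in KO sorted, 2054 in WT tumor and 1547 in KO tumor. Gzmd was at 5601, 1117, 0 and 206 CPM in the same order. Gzmd to Gzmg are proteases known from activated lymphocytes and, in the tumor libraries, were low or undetected.

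Gzme was at 1640 CPM in WT sorted, 399 in KO sorted, 0 in WT tumor and 51.4 in KO tumor. Gzmf was at 5097, 616, 0 and 7.35 CPM, and Gzmg at 3298, 219, 0 and 0 CPM. With 12 NK cells in WT tumor, 3 counts would be 81.1 CPM, so a level below that was not detectable there. In each of these 5 genes WT sorted was the highest of the 4 libraries.

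Of the apoptosis-inducing Gzmb, NK cells held 2200 CPM in WT sorted, 1351 in KO sorted, 1378 in WT tumor and 1249 in KO tumor. Gzma, the tryptase, was at 3786, 2955, 3297 and 4696 CPM. Prf1, the pore former, was at 1361, 1241, 622 and 1029 CPM, and Nkg7 at 1364, 999.7, 1973 and 1584 CPM. For Gzma and Nkg7 the highest level was in a tumor library. Gzmk was almost absent from NK cells: 5 UMIs were found in WT sorted, 3 in KO sorted and 0 in NK cells of whole tumors.

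**Figure D2:**
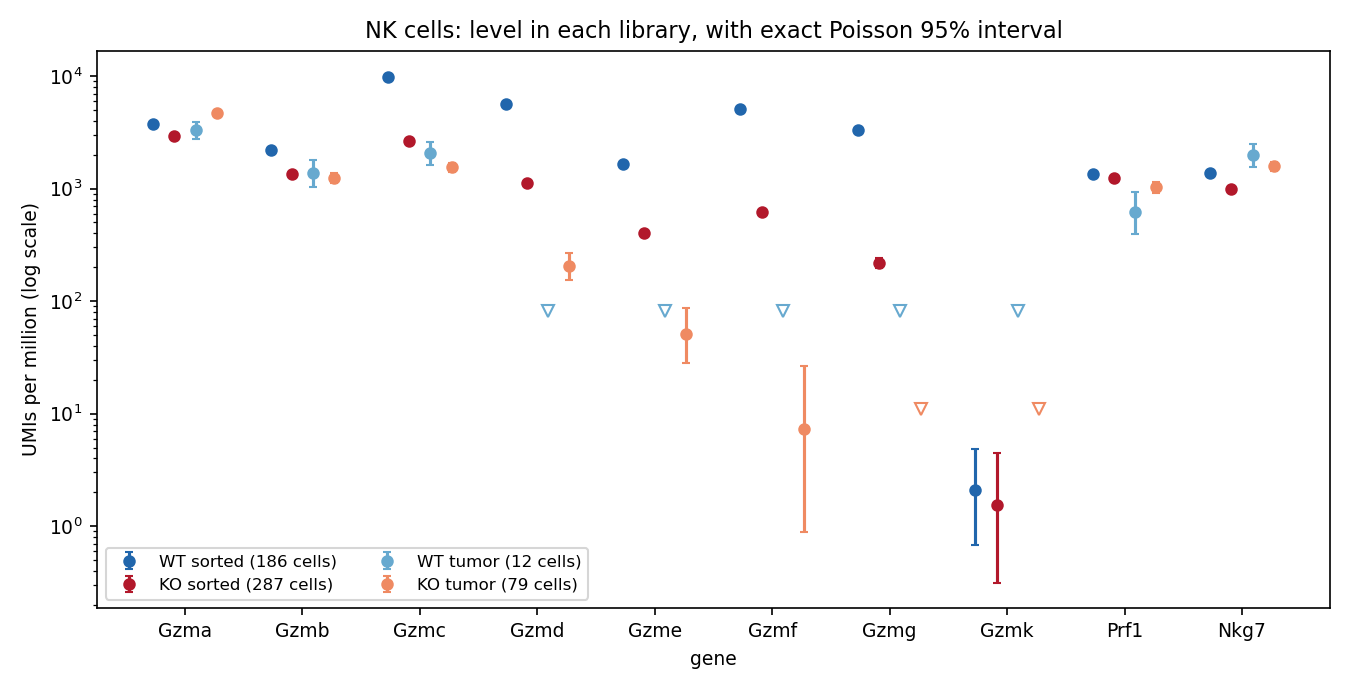
Level of each gene in NK cells (CPM, log axis) in the 4 libraries; points are levels with exact Poisson 95% intervals, and open triangles mark 3 counts where a library had 0 UMIs. The 4 libraries lie closer together for Gzma, Gzmb, Prf1 and Nkg7 than for Gzmc to Gzmg. For Gzmc to Gzmg the WT sorted points stand above the others, for example Gzmg at 3298 CPM against 219 CPM in KO sorted.

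Ratios of KO over WT were divided by that of the median gene in the same cell type, because the median gene itself was 0.37 higher on the log2 scale in KO NK cells by total UMIs. A gene with at least 20 UMIs over both libraries was called when it differed at least 2-fold. Of the 9 members that reached 20 UMIs in sorted NK cells, 6 were lower in KO and 0 higher, against 14.8% of 9241 genes called lower and 11.1% called higher. The 6 were Gzmb to Gzmg. The log2 ratios, with binomial 95% intervals for counting error, were -1.07 (-1.14 to -1.001) for Gzmb, -2.28 (-2.32 to -2.23) for Gzmc and -2.69 (-2.76 to -2.63) for Gzmd. They were -2.40 (-2.52 to -2.29) for Gzme, -3.41 (-3.50 to -3.33) for Gzmf and -4.28 (-4.42 to -4.14) for Gzmg.

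Gzma, Prf1 and Nkg7 stayed within 2-fold, at -0.72 (-0.77 to -0.67), -0.50 (-0.58 to -0.42) and -0.81 (-0.90 to -0.73). Gzmb lies at the edge of the 2-fold threshold and by total UMIs alone, without the median gene, its log2 ratio was -0.70. The 10 members together made up 3.42% of all NK cell UMIs in WT sorted, 1.15% in KO sorted, 0.932% in WT tumor and 1.04% in KO tumor, and Gzmb to Gzmg alone 2.77%, 0.633%, 0.343% and 0.306%.

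**Figure D3:**
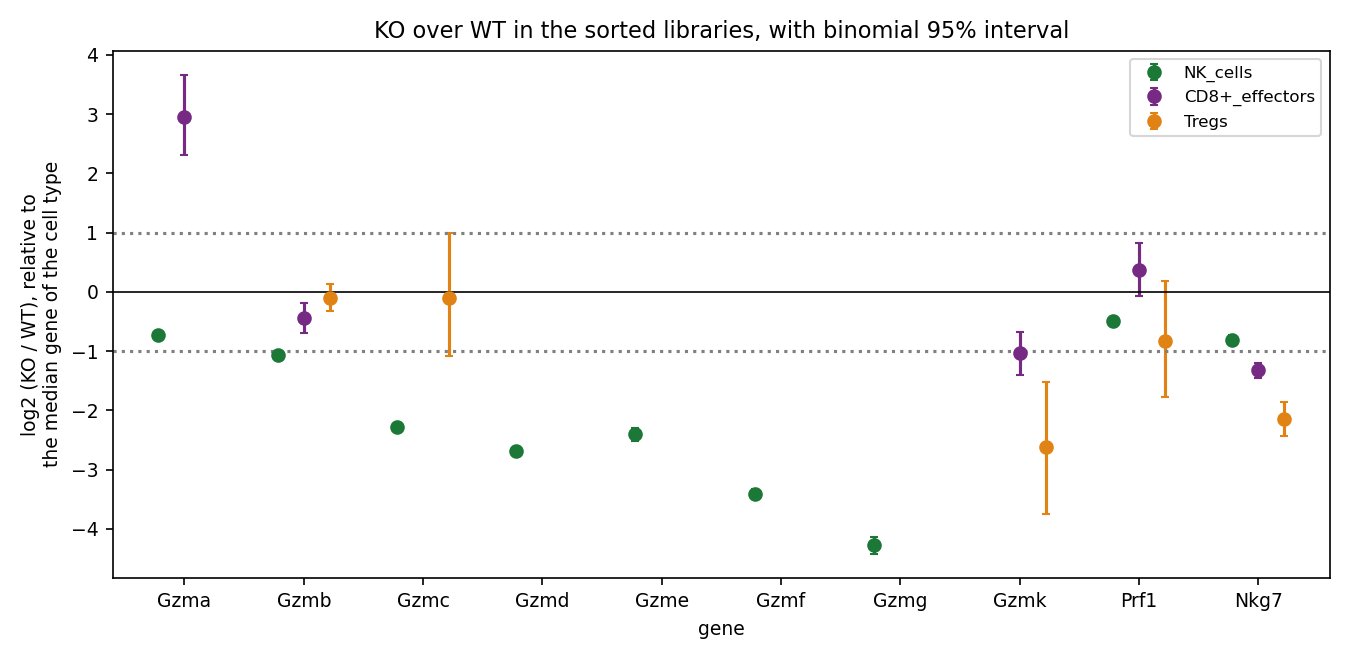
Log2 ratio KO over WT in the sorted libraries, relative to the median gene of each cell type, for members with at least 20 UMIs over both libraries; bars are binomial 95% intervals and dotted lines mark 2-fold. NK cells run from -0.50 for Prf1 to -4.28 for Gzmg, while Gzma in CD8+_effectors, at 2.96, is the one value above the upper 2-fold line and Prf1 in that class, at 0.37, lies within it.

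A smaller share of KO than of WT NK cells held a UMI of each chromosome 14 granzyme. Gzmc was detected in 61.8% of WT and 29.6% of KO sorted NK cells, and in 56.1% and 23.3% after thinning. Gzmd was detected in 24.7% and 9.41% (19.9% and 7.11% thinned), Gzme in 20.4% and 6.27%, Gzmf in 17.7% and 4.18%, and Gzmg in 16.7% and 3.14%. Gzma was detected in 78.5% and 75.3% (67.8% and 69.2% thinned), Gzmb in 83.9% and 70.7% (76.0% and 61.7%), Prf1 in 89.2% and 84.7% (73.1% and 68.4%), and Nkg7 in 96.8% and 90.9% (83.04% and 81.4%). So after thinning the shares for Gzma and Nkg7 differed by less than 2 percentage points between the libraries, and those for Gzmc by over 30.

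B cells, which should lack these genes, were measured as the background of such shares. With a median of 3118 UMIs per B cell in WT sorted and 2168 in KO sorted, against 8714.5 and 5411 in NK cells, Gzma was found in 4.22% and 2.12% of B cells, Gzmc in 7.51% and 2.12%, Gzmd in 5.76% and 1.59%, and Nkg7 in 2.78% and 1.38%. At the equal depth of 2000 UMIs, Gzmd was found in 19.9% of NK and 3.92% of B cells in WT sorted and in 7.11% and 0.8803% in KO sorted, with intervals that did not overlap. Gzmf was found in 11.7% (7.29 to 17.5) of NK and 3.48% (2.39 to 4.88) of B cells in WT, but in 3.56% (1.64 to 6.65) and 1.41% (0.610 to 2.76) in KO, where the intervals overlapped. Gzmg was found in 12.3% (7.77 to 18.2) and 3.92% (2.76 to 5.38) in WT and in 2.37% (0.875 to 5.09) and 0.176% (0.00446 to 0.977) in KO, again with overlapping intervals in KO. The KO shares of both genes were higher in NK than in B cells. Overlap of intervals alone does not decide whether they differ from background, and no test was run.

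The highest granzyme levels came from few cells. In WT sorted NK cells the 5 cells with most Gzmf UMIs held 85.4% of them, those with most Gzmg 76.1%, Gzme 63.2% and Gzmd 60.1%, against 26.9% for Gzma and 13.4% for Nkg7. In KO sorted the corresponding shares were 90.4%, 94.9%, 79.2% and 82.4%, with 14.7% for Gzma and 8.27% for Nkg7. Of the summed Gzmd to Gzmg UMIs, 37592 in WT and 4609 in KO, 3 cells held at least 50% in each library. In 1 WT NK cell the 4 genes reached 505113 CPM, and the highest KO cell reached 102044 CPM. The median NK cell had 0 UMIs of Gzmd, Gzme, Gzmf and Gzmg in both libraries, whereas the median of Gzmc was 496 CPM per cell in WT and 0 in KO. The differences in Gzmd to Gzmg thus rest on a small number of cells, and those in Gzmc on more: 13 cells held 50% of its UMIs in WT and 5 in KO.

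A level of at least 2000 CPM of Gzmd to Gzmg together, in NK cells of at least 2000 UMIs, was reached by 25 of 171 cells in WT sorted (14.6%, Clopper-Pearson 95% interval 9.69 to 20.8) and by 13 of 253 in KO sorted (5.14%, 2.76 to 8.63). In the tumor libraries 0 of 7 and 2 of 51 cells reached it. Cells with other names reached it too. In WT sorted these were 3 NB_cells and 1 cell each of Fibroblasts, Cancer_stem_cells and Neutrophils. In KO sorted they were 2 NB_cells and 1 cell each of M1_macrophages and M2_macrophages. The high cells described below are the NK cells alone. This limit is a range on a continuous scale, not a cell type: 8 WT and 7 KO cells lay within 2-fold of it. At a limit of 1000 CPM the counts were 28 and 17, and at 5000 CPM 19 and 9. The high cells held 99.3% and 97.5% of all Gzmd to Gzmg UMIs of NK cells, with a median of 21605 and 11789 UMIs per cell against 8814.5 and 5754 in the other NK cells.

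The high cells differed from the other NK cells in further members, which the limit did not use, and in the same direction in both libraries. These comparisons are within a library and, with 1 library per genotype, are given as levels only. Gzmc was at 22016 CPM in high and 5970 CPM in other cells of WT sorted, and at 15475 and 1136 CPM in KO sorted. Gzmb was at 3531 and 1762 CPM in WT and at 2246 and 1263 CPM in KO, and Prf1 at 2337 and 1036 CPM in WT and at 3272 and 1004 CPM in KO. Those 3 genes were higher in the high cells.

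Gzma was lower in them, at 2057 CPM against 4328 CPM in WT and 925 against 3186 CPM in KO. It was detected in 15 of 25 high and 120 of 146 other cells in WT, and in 6 of 13 and 187 of 240 in KO, although the high cells were the deeper ones. With the UMIs of Gzmb to Gzmg taken out of each cell's total, Gzma was at 2257 against 4362 CPM in WT and at 963 against 3194 CPM in KO. Nkg7 was at 1140 against 1426 CPM in WT and 813 against 1021 CPM in KO. The median gene was itself at a log2 ratio of -0.26 in WT and -0.28 in KO between high and other cells, which is close to the size of the Nkg7 difference.

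**Figure D4:**
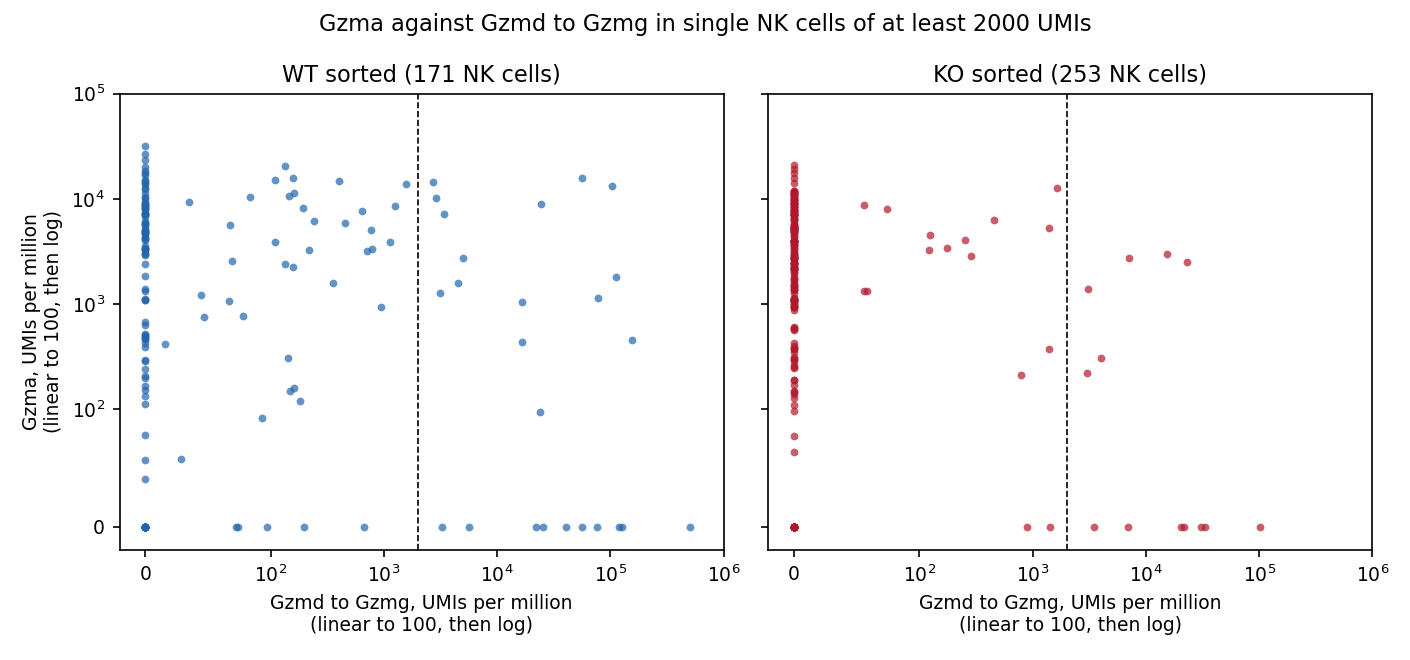
Each point is 1 sorted NK cell of at least 2000 UMIs, with the summed Gzmd to Gzmg level on the x axis and the Gzma level on the y axis (CPM, linear to 100 and logarithmic above); the dashed line is the limit of 2000 CPM. To the right of the line lie 25 of 171 WT and 13 of 253 KO cells, and 10 of the 25 and 7 of the 13 have no Gzma UMI.

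Beyond the members, genes with at least 100 CPM in the high or the other cells of each library were ranked by their smaller difference over the 2 libraries, a rule set after the values were seen. The first 3 on the higher side were Tmsb15a, a thymosin, at 345 against 32.9 CPM in WT and 595 against 14.6 CPM in KO, the myosin Myo10, at 171 against 32.4 CPM in WT and 339 against 17.6 CPM in KO, and Spp1, the secreted protein osteopontin, at 12541 against 2596 CPM in WT and 11259 against 654 CPM in KO. The first 3 on the lower side were the chemokine genes Xcl1, at 60.8 against 1397 CPM in WT and 9.68 against 819 CPM in KO, Ccl5, at 5.07 against 1581 CPM in WT and 92.0 against 1980 CPM in KO, and Ccl4, at 69.2 against 1070 CPM in WT and 48.4 against 1332 CPM in KO. The next 9 on the lower side were Cd2, Ccl3, Ltb, H2-Q7, Limd2, Klrb1f, Lck, Dnajb1 and Skap1. Transcripts of Tcf7, a factor of less differentiated lymphocytes, and of the cytokine receptor Il18r1 were at 0 UMIs in the high cells of both libraries. Among the other NK cells Tcf7 was at 49.7 CPM in WT and 141 CPM in KO. The NK receptor Ncr1 was detected in 22 of 25 and 10 of 13 high cells, at 285 and 252 CPM, and the NK factor Eomes at 140 and 228 CPM.

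Markers of monocytes and macrophages moved with the NK difference. All 8 of the list (0 of 8 at 0 UMIs in either library) summed to 2601 CPM in WT sorted and 195 CPM in KO sorted NK cells, and 69.4% and 30.0% of the cells held at least 1 of their UMIs. Lyz2 of this list was at 2579 CPM in the WT high cells against 859 CPM in the others, but at 19.4 against 97.8 CPM in KO. In the NK cells without any UMI of the 8 markers, 57 in WT and 201 in KO, Gzmb was at a log2 ratio of -1.55, Gzmc -2.60 and Gzmd -1.17, and the other 2-fold calls ended: Gzme was at -0.75, Gzmf at 0.03 and Gzmg at 0.10. Gzma, Prf1 and Nkg7 were at -1.44, -1.04 and -1.19 in these cells. The high limit was reached by 6 of 47 and 6 of 172 of them. This subset was chosen after the values were seen, and it holds the shallower cells, with a median of 4588 UMIs in WT and 5060 in KO. The part of these markers in the granzyme difference was not tested.

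In the tumor libraries the same comparison rested on 12 WT and 79 KO NK cells, too few for a call. Gzma was at 3297 CPM in WT and 4696 CPM in KO, a log2 ratio of 0.45 (0.18 to 0.73), and Prf1 at 622 and 1029 CPM, a ratio of 0.66 (0.05 to 1.34). Gzmb was at -0.21 (-0.63 to 0.25), Gzmc at -0.47 (-0.83 to -0.10) and Nkg7 at -0.38 (-0.74 to -0.00246). Gzmd had 0 UMIs in WT and 56 UMIs in KO. Set against 3 counts over the WT cells its log2 ratio was 1.28, and the counting interval began at 0.93. The directions of Gzma, Prf1 and Gzmd in whole tumors thus went against those in the sorted libraries, and the difference between preparations was not tested. These values come from few cells: the Gzma UMIs of WT lay in 5 of 12 cells, 2 of which held at least 50% of them, its Prf1 UMIs in 7 cells, and the Gzmd UMIs of KO in 5 of 79 cells.

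In the CD8+_effectors Nkg7, Gzmb, Gzmk and Prf1 were each detected, as measured, in over 30% of the sorted cells of both genotypes. Of these, Gzmk set the class apart from NK cells, most of which also held Nkg7, Gzmb and Prf1. After thinning, Prf1 in both libraries, Gzmb in WT and Gzmk in KO fell below 30%. The class held 150 WT and 175 KO cells in the sorted preparation and 10 WT and 61 KO cells in whole tumors. The list of 7 CD8 T cell markers was Cd8a, Cd8b1 and the general T cell genes Cd3d, Cd3e, Cd3g, Trac and Trbc2. All 7 were detected in both sorted libraries, at a summed 7324 and 4743 CPM, and 100% and 99.4% of the cells held at least 1 of them. Cd8a was found in 73.3% of WT and 62.3% of KO sorted cells, and Cd8b1 in 79.3% and 55.4%. The 10 NK markers summed to 1026 CPM in WT and 1731 CPM in KO, with 1 of 10, Khdc1a, at 0 UMIs in each.

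Nkg7 was at 2298 CPM in WT sorted, 1248 in KO sorted, 981 in WT tumor and 1879 in KO tumor. Gzmk, the tryptase, was at 242, 160, 35.1 and 128 CPM, where 3 counts would be 105 CPM in WT tumor. Gzmb was at 365, 366, 701 and 231 CPM and Prf1 at 90.8, 160, 35.1 and 103 CPM. In the sorted libraries the intervals of Gzmb overlapped, while those of Nkg7 and Gzmk did not.

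Relative to the median gene, which was 0.45 higher in KO on the log2 scale by total UMIs, 2 of the 5 members with at least 20 UMIs were called lower and 1 higher, against 12.7% of 6644 genes called lower and 10.6% called higher. Nkg7 was lower at a log2 ratio of -1.33 (-1.45 to -1.21) and Gzmk at -1.04 (-1.40 to -0.68). Scaled by total UMIs alone 0 were lower and 1 higher, with Nkg7 at -0.88 and Gzmk at -0.59. Gzmb was at -0.44 (-0.70 to -0.19) and Prf1 at 0.37 (-0.07 to 0.83).

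Gzma was called higher in KO, with 22 UMIs (28.1 CPM) in WT sorted and 193 UMIs (298 CPM) in KO sorted, a log2 ratio of 2.96 (2.32 to 3.66). Its share of cells was 4.67% in WT and 8.57% in KO, beside 4.22% and 2.12% of B cells, and 5 KO cells held 94.3% of its UMIs. Without the 5 cells with most UMIs in each library Gzma fell under the minimum of 20 UMIs and could not be called. The WT share is close to that of B cells, so no expression in WT CD8+_effectors was read from it. In the tumor libraries Gzma was at 280 CPM in WT, from 1 of 10 cells, and at 170 CPM in KO.

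The shares of CD8+_effectors with a UMI were 96.7% and 94.9% for Nkg7, 42.7% and 30.9% for Gzmk, 34.7% and 38.9% for Gzmb, and 34.7% and 37.1% for Prf1, in WT sorted and KO sorted. The median depth was 4841.5 and 3276 UMIs per cell. B cells with a UMI were 0.103% and 0% for Gzmk and 2.06% and 1.38% for Gzmb. After thinning, Gzmk was found in 57.6% of the WT cells with Gzmb and in 23.7% of those without, and in 32.7% and 18.9% in KO. Gzmc to Gzmg had 12 UMIs or fewer each in every library of this class. Of all Gzmk UMIs, the CD8+_effectors held 51.9% in WT sorted and 52.3% in KO sorted, and NK cells 1.37% and 1.51%.

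In the tumor libraries 10 WT and 61 KO CD8+_effectors were compared. Nkg7 had a log2 ratio of 0.59 (0.03 to 1.20), Gzmb of -1.95 (-2.77 to -1.09), and Gzmk of 1.52 (-1.12 to 6.89) from 1 UMI in WT and 21 in KO. The Gzmb value rests on few cells: all 20 of its WT UMIs lay in 5 or fewer cells, and 1 cell held at least 50% of them. The Nkg7 direction went against that in the sorted libraries.

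**Figure D5:**
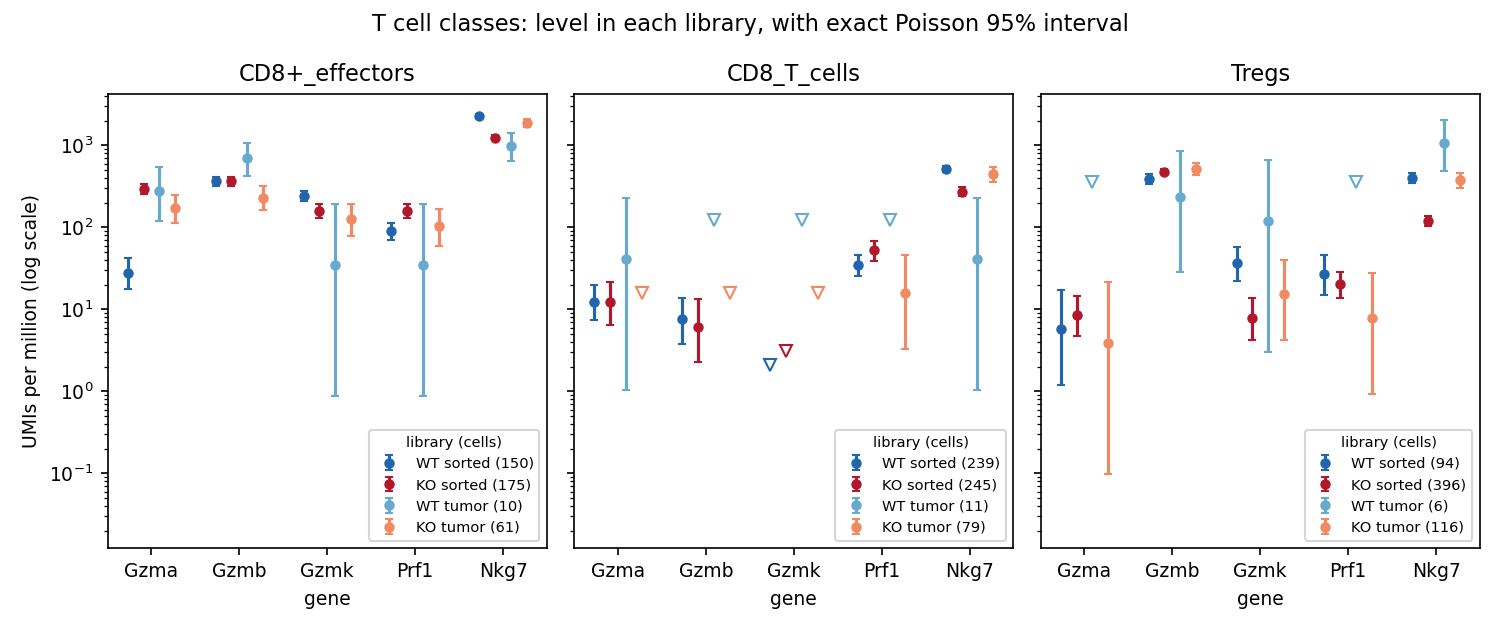
Levels of Gzma, Gzmb, Gzmk, Prf1 and Nkg7 (CPM, log axis) in 3 T cell classes and 4 libraries, with exact Poisson 95% intervals; open triangles mark 3 counts where a library had 0 UMIs. In the sorted libraries Gzmb is near 365 CPM in CD8+_effectors and near 387 to 480 CPM in Tregs but under 10 CPM in CD8_T_cells, and Nkg7 is lower in KO than in WT in all 3 classes.

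Summed over all its cells, the class named Tregs held Gzmb without much of the other granzymes. Gzmb was at 387 CPM in WT sorted, 480 CPM in KO sorted and 518 CPM in KO tumor, in 27.7%, 33.8% and 27.6% of cells, at a median depth of 4833, 3582 and 1846.5 UMIs. The median gene of Tregs was 0.41 higher in KO on the log2 scale, and relative to it Gzmb was at a sorted log2 ratio of -0.10 (-0.32 to 0.14), so the levels relative to the median gene were within counting error. With 94 Tregs in WT sorted and 396 in KO sorted, the class held 2.47% of all Gzmb UMIs in WT and 14.5% in KO. Prf1 was at 27.2 and 20.2 CPM and Gzma at 5.83 and 8.59 CPM. The cells with Gzmb differed between the sorted libraries. After thinning, Gzmk was found in 26.3% of WT Tregs with Gzmb and 1.59% of those without. In KO these shares were 2.88% and 1.72%. The 5 cells with most Gzmb held 51.3% of its UMIs in WT and 23.0% in KO. The ratio of Gzmb near 0 therefore compares unlike sets of cells.

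Of 5 members with at least 20 UMIs in Tregs, 2 were lower in KO and 0 higher, against 12.4% of 8252 genes lower and 13.2% higher. Nkg7 was at 404 CPM in WT sorted and 121 CPM in KO sorted, a log2 ratio of -2.15 (-2.44 to -1.86), and Gzmk at 36.9 and 7.98 CPM, a ratio of -2.62 (-3.76 to -1.52). The class differed in its markers too: the 5 regulatory T cell markers, among them Foxp3, summed to 1446 CPM in WT and 5636 CPM in KO. The 7 genes of the CD8 T cell list summed to 4418 and 3065 CPM. Most of those 7 are general T cell genes such as Cd3d and Trac, so their sum does not show CD8 identity. Their part in the Nkg7 and Gzmk values was not tested.

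The class named CD8_T_cells, with 239 and 245 sorted cells, held little of the members apart from Nkg7. Nkg7 was at 518 CPM in WT and 274 CPM in KO, and Prf1 at 34.7 and 52.5 CPM, while Gzmk was at 0 UMIs in both. The median gene was 0.57 higher in KO on the log2 scale. Of 4 members with at least 20 UMIs 2 were lower and 0 higher, against 14.8% of 7443 genes lower and 10.5% higher. These were Nkg7, at a log2 ratio of -1.49, and Gzmd, at -2.07 from 21 and 5 UMIs. Gzmd was found in 7.95% and 2.04% of these cells, against 5.76% and 1.59% of B cells, and is not read as expression.

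The NB_cells class carries the name of the tumor cells, yet in the sorted libraries most of its member UMIs lay in cells with NK receptor transcripts. Cells with a UMI of Ncr1 or Klrb1c were 37 of 205 (18.0%) in WT sorted and 72 of 171 (42.1%) in KO sorted, and they held 93.0% and 92.7% of the class's member UMIs. Gzma was at 2771 and 2086 CPM in them and at 1.42 and 3.37 CPM in the rest of the class. Gzmc was at 2385 and 1429 CPM against 4.396 and 10.9 CPM. Gzmk went the other way, at 0 and 0.822 CPM against 11.8 and 22.3 CPM in the rest. That rest also held Gzmb at 19.1 and 110 CPM and Nkg7 at 49.4 and 91.4 CPM. In whole tumors such cells were 2 of 1665 and 7 of 1283 NB_cells. The levels given for NK cells above therefore leave out cells with NK transcripts that bear another name.

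Genes that load, process and release granule contents were followed with a list of 26 genes. In sorted NK cells all 26 reached 20 UMIs, of which 3 were higher and 4 lower in KO, with a median log2 ratio of -0.26 against 0 for all genes by construction. These counts are close to the background of 11.1% of genes called higher and 14.8% called lower, so nothing is read from them about the list, and the called genes are given as single values. Higher were Serpinb9, the inhibitor that protects cells from granzyme B, at 238 CPM in WT and 644 CPM in KO (1.07), Lyst, which acts in lysosome trafficking, at 23.7 and 86.2 CPM (1.497), and the death ligand Tnfsf10 at 20.4 and 54.1 CPM (1.04). Lower were the granule proteoglycan Srgn, at 1190 and 666 CPM (-1.20), Ctsc, the protease that activates granzymes, at 186 and 96.4 CPM (-1.31), the granule membrane protein Lamp1, at 208 and 117 CPM (-1.19), and Serpinb9b, at 79.9 and 32.1 CPM (-1.68). Fasl and Rab27a, which serves granule docking, were at 0.96 and 0.91, within 2-fold. Neither this list nor the list of regulators below was measured again without the NK cells holding macrophage markers. The part of those markers in these values was not tested.

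In CD8+_effectors 25 of the 26 reached the minimum, 2 were higher and 3 lower, and the median was -0.07, again close to the background of 10.6% higher and 12.7% lower. Serpinb9 was again higher, at 35.8 CPM in WT and 130 CPM in KO (1.41), and Rab27a was at 32.0 and 105 CPM (1.27). The chemokine Ccl5 was lower, at 11328 and 4533 CPM (-1.77), as were Gzmm, a granzyme outside the list of members, at 39.7 and 21.6 CPM (-1.32), and the cystatin Cst7, at 214 and 145 CPM (-1.005).

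Transcription factors and cytokine receptors known to control granzyme genes made a list of 20. In sorted NK cells 19 reached the minimum, 9 were higher in KO and 1 lower, with a median of 0.99, where 11.1% of all genes were called higher and 14.8% lower. The T-box factors Tbx21, at 29.9 CPM in WT and 112 CPM in KO (1.54), and Eomes, at 155 and 420 CPM (1.08), were higher, as were Prdm1 (1.22), Tcf7 (1.41), Foxo1 (1.19) and the receptor genes Il2ra (2.25), Il12rb2 (1.51), Il18r1 (1.30) and Il15ra (1.06). Batf was lower, at 33.7 and 20.4 CPM (-1.09). In CD8+_effectors 18 reached the minimum, 5 were higher (Zeb2, Prdm1, Il2rb, Id2 and Irf4, from 1.06 to 1.44) and 0 lower, with a median of 0.64, where 10.6% of all genes were called higher and 12.7% lower.

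Across 50 groups of cell type and library with at least 50 cells, levels of members were compared with those of 13812 genes. These genes had at least 200 UMIs in all. This is a description over groups that share libraries. Gzmd and Gzme had a Pearson r of 0.96 with each other, and Gzmk and Gzme one of 0.10. The gene most like Gzma was the NK receptor gene Klre1 (r = 0.89), and that most like Gzmb was Klrg1 (r = 0.90). Prf1 was most like Eomes (r = 0.88), Nkg7 like the chemokine gene Xcl1 (r = 0.93), and Gzmk like Pdcd1, which encodes the receptor PD-1 (r = 0.87).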

How the data were processed

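Single-cell RNA of sorted CD45+ cells and of whole tumors was measured with 10x Genomics 3' version 3 chemistry, per the labels' protocols. Tools and genome build, per the submitters' processing notes, were Seurat 4.0.5, Cell Ranger 6.0.1 and mm10, whose use in each step is not given in the sources used here. The deposited matrix holds natural log values, ln(1 + 10000 × UMIs / total UMIs of the cell), and the authors also deposited total UMI counts and cell type names, which are used as given. Other filters are not given in the sources used here. The smallest cell has 500 UMIs.

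UMIs were recovered with the deposited totals: all 60957742 nonzero values were whole within 0.01, and sums equalled the totals in 20376 of 20376 cells. Doublets were not called; cells with markers of another class were left out as an alternative. UMIs were summed by cell type and library. With 1 library per group no count model or test was run. Ratios, relative to the median gene, needed at least 20 UMIs over both libraries and 50 cells in each (tumor libraries: 10, not called), and 2-fold was called. Intervals are 95%. Cells were thinned to 2000 UMIs, leaving out shallower ones (15 WT and 34 KO sorted NK cells, 20 and 28 CD8+_effectors, 53 and 375 B cells). On simulated data, 190 of 190 changed genes were called among 9250 genes for NK cells and 173 of 174 among 6629 for CD8+_effectors. Of the unchanged genes, 150 of 9060 and 196 of 6455 were called too. The effect of spread between cells, mice or libraries on these numbers was not tested. The genes named were the 10 members, the called and the 5 highest and 5 lowest genes of 2 fixed lists, and those most correlated with each member; others were chosen after their values were seen. Members and lists were chosen with earlier results of these data known. Promoters came from RefSeq (GRCm38.p6). Python 3.11.15, numpy 2.4.6, scipy 1.17.1, pandas 2.3.3, Biopython 1.88 and matplotlib 3.10.9 were used.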

Additional observations from a re-analysis of the deposited data

Results flagged for a closer look

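For 4 genes the direction of KO over WT differed between cell types or preparations, with counting intervals on opposite sides of 0; the differences were not tested, since each group was 1 library. Gzma was at a log2 ratio of -0.72 in sorted NK cells and 2.96 in sorted CD8+_effectors, the latter from few KO cells, and at 0.45 in tumor NK cells. Gzmd was at -2.69 in sorted NK cells and, set against 3 counts because WT had 0 UMIs, at 1.28 in tumor NK cells, with a counting interval from 0.93. Prf1 was at -0.50 in sorted and 0.66 in tumor NK cells. Nkg7 was at -1.33 in sorted and 0.59 in tumor CD8+_effectors. The tumor values rest on 12 WT and 79 KO NK cells and on 10 WT and 61 KO CD8+_effectors.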

How the results depend on the processing

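No paired analysis was possible because cells carry no sample names, and for the same reason no sample could be left out in turn. In sorted NK cells 0 members were higher in KO under every alternative run, and between 4 and 8 were lower. The Gzmb call in NK cells ended by total UMIs (-0.70), with genes of at least 1 UMI (-0.998), with a marker gate (-0.86), without the 5 top cells (-0.92) and without the cells high in Gzmd to Gzmg (-0.85). Without macrophage-marker cells Gzmf and Gzmg turned to 0.0332 and 0.0964; the cause was not tested. In CD8+_effectors 2 members were lower in the main analysis, 0 by total UMIs, 4 with genes of at least 1 UMI, and 1 each with genes of at least 100 UMIs, thinned cells, a stricter cell filter and the marker gate. The 1 higher became 2 with genes of at least 1 UMI and 0 without the 5 top cells, where 4 members were left to test. Gzmb turned to 0.00386 by total UMIs and Prf1 to -0.0373 by the mean of per-cell CPM. In Tregs Gzmb and Gzmc turned to 0.31 and 0.30 by total UMIs and to 0.30 and 0.29 with genes of at least 1 UMI, and Gzmc to 0.12 without cells bearing B cell or macrophage markers. The share of member UMIs in NK cells and CD8+_effectors was 81.2% in WT sorted, 71.9% in KO sorted, 94.6% in WT tumor and 85.9% in KO tumor after thinning, and 80.7%, 67.02% and 80.9% in WT sorted, KO sorted and KO tumor without Nkg7. Alternatives that left out top cells, high cells, macrophage-marker cells or shared barcodes, and all those for Tregs, were chosen after seeing the data. Depth limits the tumor libraries, with 12 WT NK cells.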
